A study of Mus musculus with 6 samples.

Results

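The homeostatic and lymphocyte-attracting CXC chemokines were examined in mouse skin as 9 genes of the 18939 in the deposited table. They were taken by symbol and comprise the ligands Cxcl9, Cxcl10, Cxcl12, Cxcl13, Cxcl14 and Cxcl16 and the receptors Cxcr3, Cxcr4 and Cxcr6. All 9 reached the level required for testing, at least 1 FPKM in at least 3 libraries, as did 12994 genes in all. FPKM is scaled to transcript length and to the mapped fragments of the library, so levels of different genes can be set side by side.

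Skin messenger RNA was sequenced in 6 libraries. The 3 CKO libraries (replicates 1, 2 and 5) carry the genotype label of a VAMP7 conditional knockout in basophils, and the 3 libraries titled FLOX (replicates 2, 3 and 5) are labelled wild type. VAMP7 is a SNARE protein of vesicles that takes part in membrane fusion, and basophils are rare granulocytes of allergic inflammation. The title of the series gives MC903-OVA as the model for the whole set, in which the vitamin D analogue calcipotriol (MC903) and the antigen ovalbumin inflame the skin, so both genotypes are inflamed skin and untreated skin was not analysed here. The sources used here do not give the Cre driver, the strain, the age or any pooling of animals. The comparison asks how inflamed skin differs when basophils lack VAMP7.

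Chemokines are small secreted proteins that steer leukocytes through G protein-coupled receptors. CXCL9 and CXCL10 are induced by interferon gamma and draw activated T cells and natural killer cells through CXCR3. CXCL12, made by fibroblasts and endothelium, acts through CXCR4 on most leukocytes. CXCL16, a chemokine anchored in the membrane of macrophages and other cells, binds CXCR6 on T cell subsets. CXCL13 attracts B cells through CXCR5, and CXCL14 is made in the resting epidermis and dermis.

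The libraries were alike in scale, with FPKM sums of 556412 to 594987, and read depth is unknown. Keratinocyte genes marked the tissue as skin in both groups, with Krt14 at 3946 ± 180 FPKM in CKO and 3583 ± 230 FPKM in FLOX (mean ± SD, n = 3 each, as for all means below). Vamp7 measured 19.71, 19.11 and 19.73 FPKM in CKO and 20.4, 21.51 and 20.77 FPKM in FLOX. The groups did not overlap, but Vamp7 did not pass (log2 fold change -0.09, limma adjusted p = 0.475). Which cells of the skin supply it was not measured. Basophil genes were lower in CKO (median log2 fold change -0.62 over 9 genes, of which Mcpt8 and Prss34 passed), as were neutrophil genes (median -1.15 over 8, of which Retnlg, Mmp8, Ly6g, Cxcr2 and S100a9 passed). Skeletal muscle genes were higher in CKO (median 1.63 over 12, of which Myh2 passed), with summed levels of 797 to 2106 FPKM in CKO and 303 to 629 FPKM in FLOX. Among other lists of skin structures, none of 9 suprabasal keratinocyte genes (median 0.90), 8 adipocyte genes (median 0.97) or 4 tested hair follicle genes (median 0.55) passed. In bulk skin, fewer cells of a type and less RNA per cell cannot be told apart.

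The promoters of 3 genes are shown because their genes carry the results below: Cxcl9 and Cxcl10, the interferon-induced pair whose levels varied most between libraries, and Cxcl14, whose groups lay furthest apart relative to their spread. Each is the stretch of 250 bases before the start in the RefSeq table of build GRCm38.p6, all on the minus strand, at chr5:92328080-92328329 for Cxcl9, chr5:92348890-92349139 for Cxcl10 and chr13:56296552-56296801 for Cxcl14. Capitals mark matches to the motifs searched.
Cxcl9: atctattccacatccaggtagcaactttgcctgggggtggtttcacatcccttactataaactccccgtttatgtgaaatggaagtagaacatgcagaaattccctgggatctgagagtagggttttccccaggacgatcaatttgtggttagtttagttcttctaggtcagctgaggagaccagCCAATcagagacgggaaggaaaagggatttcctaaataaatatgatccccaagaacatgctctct
Cxcl10: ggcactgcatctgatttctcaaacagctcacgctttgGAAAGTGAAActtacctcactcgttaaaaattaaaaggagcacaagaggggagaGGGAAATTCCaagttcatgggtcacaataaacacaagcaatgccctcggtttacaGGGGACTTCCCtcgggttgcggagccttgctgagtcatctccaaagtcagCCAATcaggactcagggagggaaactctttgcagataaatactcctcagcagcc
Cxcl14: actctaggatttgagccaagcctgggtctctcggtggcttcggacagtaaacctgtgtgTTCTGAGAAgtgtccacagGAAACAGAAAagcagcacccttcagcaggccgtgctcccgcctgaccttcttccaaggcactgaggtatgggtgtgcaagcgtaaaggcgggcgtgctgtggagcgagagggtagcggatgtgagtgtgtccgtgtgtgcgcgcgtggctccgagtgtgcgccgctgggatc

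The motifs, searched on both strands, were the interferon-stimulated response element (GAAA repeated after a spacer of 2 bases), the gamma-activated site (TTCNNNGAA), the kappa B consensus and the CCAAT box (CCAAT). Of the 9 genes, 8 had an entry, and Cxcl16 is named only. The Cxcl10 stretch held the interferon-stimulated response element (GAAAGTGAAA, 213 to 204 bases before the start), which 2.98% of all 32851 stretches hold. It also held the kappa B consensus at GGGAAATTCC (159 to 150 bases before the start) and in overlapping matches 104 to 94 bases before it, a motif in 7.25% of stretches. A CCAAT box stood in the Cxcl10 and Cxcl9 stretches, as in 33.8% of all. The Cxcl14 stretch held GAAACAGAAA at 172 to 163 bases and the gamma-activated site TTCTGAGAA at 191 to 183 bases before the start, the latter a motif in 7.02% of stretches. Neither of these motifs nor the kappa B consensus occurred in the Cxcl9 stretch, and the stretches of Cxcl12, Cxcl13, Cxcr3, Cxcr4 and Cxcr6 held no match to any of the 4 motifs.

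No member passed the test between CKO and FLOX skin (limma across all genes with Benjamini-Hochberg adjustment, threshold 0.05), where 0.954% of the tested genes passed. At an unadjusted limma p under 0.05 there were 2 members, Cxcl14 and Cxcl16, both lower in CKO, against 21.6% of the tested genes in either direction and 8.94% lower in CKO. That number became 1 without FLOX replicate 3 or without FLOX replicate 5, and 3 without CKO replicate 1. The same 2 members had groups that did not overlap, which held for 27.0% of the tested genes, 11.4% with CKO below FLOX. The median log2 fold change of the 9 was -0.04, against 0.03 for all tested genes, with 6 negative and 3 positive. The smallest p that an exact permutation test of 3 against 3 libraries allows is 0.1.

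**Figure D1:**
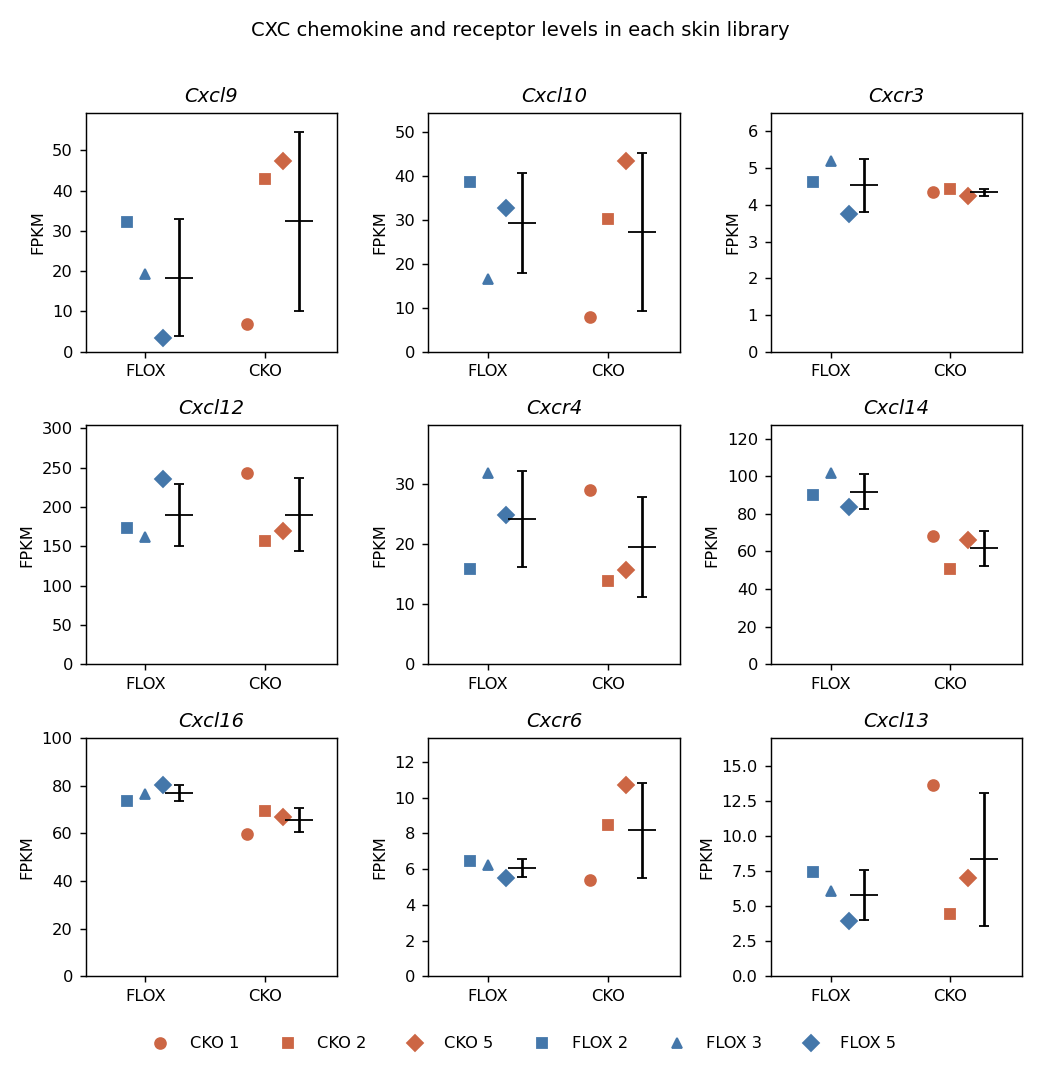
FPKM of each member in each library, with FLOX in blue and CKO in orange, a symbol for each replicate number, and the mean and SD (n = 3) as black bars; axes start at 0. The CKO points lie below all FLOX points for Cxcl14 and Cxcl16 and overlap them for the other 7 genes.

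The levels spanned a wide range. Cxcl12 was the most abundant, at a mean of 190 FPKM over the 6 libraries (SD 38.8), above every value of the other 8. Cxcl10, Cxcl16 and Cxcr6 overlap other genes in the RefSeq table (Art3, Zmynd15 and Fyco1), and the sources used here do not say whether reads were counted by strand. Their values are uncertain to that extent. Art3 was listed at 13.71 to 20.15 FPKM in CKO and 9.13 to 13.32 FPKM in FLOX, with no overlap. Any part of it in the Cxcl10 values was not tested. Zmynd15 was listed at 2.96 to 3.96 FPKM and Fyco1 at 5.09 to 7.06 FPKM over all libraries. Cxcl14 (76.8 FPKM, SD 18.6) and Cxcl16 (71.2 FPKM, SD 7.30) followed, overlapping each other, with Cxcl14 the higher in 4 of 6 libraries. Cxcl10 (28.3 FPKM, SD 13.5), Cxcl9 (25.3 FPKM, SD 18.4) and Cxcr4 (21.9 FPKM, SD 7.74) overlapped, and each neighbour in that order was the higher in 3 of 6 libraries. Cxcr6 (7.13 FPKM, SD 2.06), Cxcl13 (7.08 FPKM, SD 3.50) and Cxcr3 (4.44 FPKM, SD 0.474) were the lowest. The gap from Cxcr4 down to Cxcr6 held in 6 of 6 libraries, whereas Cxcl13 overlapped both Cxcr6 and Cxcr3.

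Cxcl14, a chemokine of resting epithelium that attracts monocytes and dendritic cell precursors, measured 68, 50.89 and 66.03 FPKM in CKO and 90.23, 101.85 and 83.73 FPKM in FLOX. Every CKO library lay below every FLOX library, and the CKO mean was 33.0% lower (61.6 ± 9.36 against 91.9 ± 9.18 FPKM). The log2 fold change was -0.58 (SE 0.13, 95% interval -0.88 to -0.28), which did not pass over all genes (limma adjusted p = 0.0649). The exact permutation test gave p = 0.1. Leaving out any library kept the sign, at -0.65 with CKO replicate 1 left out and -0.45 with CKO replicate 2 left out as the extremes, and the adjusted limma p ranged from 0.0581 to 0.999 over the 17 alternatives tried.

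Marker lists of keratinocytes and fibroblasts, which make Cxcl14, had mostly positive fold changes in CKO skin. Their part in the Cxcl14 values was not tested. The 7 basal keratinocyte genes were all tested and none passed, but all 7 had positive fold changes (median 0.31), and their summed level was 4970 to 5490 FPKM in CKO and 4204 to 4935 FPKM in FLOX. The basal keratin gene Krt5 stood at 1124 ± 191 FPKM in CKO against 828 ± 158 FPKM in FLOX. Of the 12 fibroblast genes none passed and 11 were positive (median 0.54), with sums of 3382 to 5056 FPKM in CKO and 3289 to 4509 FPKM in FLOX. The matrix gene Dcn stood at 1553 ± 147 FPKM in CKO against 1516 ± 176 FPKM in FLOX. Relative to the basal keratinocyte genes within each library, Cxcl14 stood at log2 -0.87, -1.35 and -0.96 in CKO and at -0.24, -0.06 and -0.18 in FLOX, a difference of -0.90 with no overlap. Relative to the fibroblast genes the difference was -0.97, also with no overlap. Each had an exact permutation p = 0.1, adjusted to 0.35 over the 14 ratios computed. The ratio to basal keratinocyte genes could not overlap, because Cxcl14 was lower and that list higher in every CKO library. Cxcl14 alone already lay apart, so neither ratio is further evidence of a difference.

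Monocyte and macrophage genes were lower in CKO beside Cxcl14. All 13 of the list were tested, all had negative fold changes, 1 passed (Cd14, the co-receptor for bacterial lipopolysaccharide), and the median was -0.42. Their summed level was 3775 to 4408 FPKM in CKO and 4726 to 5037 FPKM in FLOX, and no member of the list was at 0. Cd14 fell from 188.8 ± 54.2 to 66.3 ± 15.1 FPKM, while the abundant lysozyme gene Lyz2 stood at 1613 ± 166 FPKM in CKO against 1712 ± 263 FPKM in FLOX and the complement gene C1qb at 519 ± 59.2 against 615 ± 35.3 FPKM. Skeletal muscle genes moved the other way, and with their mean per library as a covariate the Cxcl14 log2 fold change was -0.47. That mean was higher in every CKO library than in any FLOX library, so muscle and genotype cannot be told apart in this fit. The part of macrophage or muscle genes in the Cxcl14 values was not tested.

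Cxcl16, which is both an adhesion molecule and, once shed, a chemoattractant for CXCR6-bearing T cells, measured 59.82, 69.58 and 67.1 FPKM in CKO and 73.56, 76.71 and 80.24 FPKM in FLOX. The groups again did not overlap, although CKO replicate 2 was within a few FPKM of FLOX replicate 2. The CKO mean was 14.8% lower (65.5 ± 5.07 against 76.8 ± 3.34 FPKM), with a log2 fold change of -0.23 (SE 0.08, 95% interval -0.42 to -0.04, limma adjusted p = 0.168). Cxcl16 is made by macrophages, whose marker list is given above. Set against that list within each library, Cxcl16 had log2 ratios of -1.59, -1.14 and -1.37 in CKO and -1.64, -1.62 and -1.51 in FLOX. The ratios overlapped between the groups (difference 0.22, exact permutation p = 0.2, adjusted to 0.467). The part of macrophages in the Cxcl16 values was not tested. Of dendritic cell genes, another source, 8 were tested and none passed (median 0.13).

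The receptor for CXCL16, Cxcr6, found on activated and tissue-resident T cells, measured 5.4, 8.45 and 10.7 FPKM in CKO and 6.48, 6.22 and 5.53 FPKM in FLOX. CKO replicates 2 and 5 were above all FLOX libraries and CKO replicate 1 was below them, so the groups overlapped. Its log2 fold change was 0.33 (SE 0.20, 95% interval -0.14 to 0.81, limma adjusted p = 0.394). Leaving out CKO replicate 5 gave 0.14, and leaving out CKO replicate 1 gave 0.57 with a limma adjusted p = 0.0808. The within-library ratio of Cxcl16 to Cxcr6 did not overlap between the groups, at log2 3.25, 2.90 and 2.54 in CKO and 3.32, 3.43 and 3.64 in FLOX. The difference of -0.56 had an exact permutation p = 0.1, adjusted to 0.35. Cxcl16 alone already lay apart while Cxcr6 overlapped, so this ratio is not further evidence of a difference. Of the proteases that shed CXCL16, Adam10 measured 38.7 ± 0.105 FPKM in CKO against 38.1 ± 2.27 FPKM in FLOX, and Adam17 23.4 ± 1.30 and 24.5 ± 1.52 FPKM. Neither passed (limma adjusted p = 0.896 and 0.712).

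**Figure D2:**
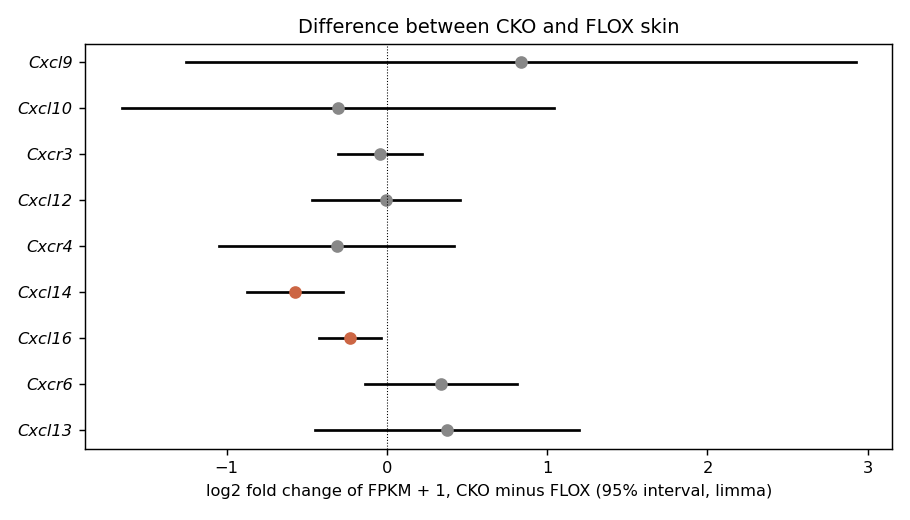
Log2 fold change of FPKM + 1 (CKO minus FLOX) for each member on the horizontal axis, with its 95% interval from limma; orange points mark genes whose groups did not overlap and grey points the others. The intervals of Cxcl14 (-0.88 to -0.28) and Cxcl16 (-0.42 to -0.04) lie below 0, and that of Cxcl9 is the widest, from -1.26 to 2.93.

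The interferon-induced ligands varied widely within both groups. Cxcl9 measured 6.86, 42.84 and 47.38 FPKM in CKO and 32.28, 19.38 and 3.33 FPKM in FLOX, a 14.2-fold range over the 6 libraries. The lowest value was in FLOX and the next lowest in CKO, so the groups overlapped. Its within-group SD of 1.51 on the log2(FPKM + 1) scale exceeded that of 99.99% of the tested genes. The log2 fold change of 0.84 (SE 0.90) had a 95% interval from -1.26 to 2.93 (limma adjusted p = 0.651), and without FLOX replicate 5 the log2 fold change was -0.028.

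Cxcl10, a ligand of the same receptor, measured 7.95, 30.31 and 43.53 FPKM in CKO and 38.64, 16.52 and 32.87 FPKM in FLOX, a 5.48-fold range. CKO replicate 1 was the lowest and CKO replicate 5 the highest, with all FLOX libraries between them. The within-group SD of 0.97 (log2) exceeded that of 99.87% of the tested genes. Its log2 fold change was -0.30 (SE 0.58, 95% interval -1.65 to 1.04, limma adjusted p = 0.813), and 0.38 without CKO replicate 1. These intervals leave room for differences of more than 2-fold either way on the log2(FPKM + 1) scale for Cxcl9, and for Cxcl10 they run from 0.318-fold to 2.06-fold.

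Cxcl9 and Cxcl10 had similar levels in 5 of 6 libraries and parted in FLOX replicate 5. Cxcl10 was 0.708 to 1.20 times Cxcl9 in the CKO libraries and in FLOX replicates 2 and 3, and 9.87 times Cxcl9 in FLOX replicate 5. The log2 ratio of Cxcl9 to Cxcl10 was thus -2.97 in that library and -0.25 to 0.49 in the others. The ratio did not separate the groups (difference 1.14, exact permutation p = 0.4, adjusted to 0.56), and without FLOX replicate 5 the difference was 0.16. Over the 6 libraries Cxcl9 and Cxcl10 had Pearson r = 0.47 (exact permutation p = 0.358, adjusted to 0.418 over 7 relations) and Spearman rho = 0.54 (exact permutation p = 0.297, adjusted to 0.520), and r was 0.38 without CKO replicate 1 and FLOX replicate 3, the farthest in Cxcl10.

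Other genes induced by interferon gamma did not separate the groups as a list. Of 18 listed, 17 were tested, none passed, 10 were positive and 7 negative, and the median was 0.02. The immunoproteasome gene Psmb8 measured 74.0 ± 13.0 FPKM in CKO against 68.1 ± 14.9 FPKM in FLOX. Socs1, the feedback inhibitor of cytokine signalling, measured 33.4 ± 19.7 FPKM in CKO against 80.0 ± 20.0 FPKM in FLOX without passing (limma adjusted p = 0.0895). Interferon gamma itself was barely detected, with Ifng at 0.527 ± 0.405 and 0.853 ± 0.450 FPKM, below the level for testing. Of its receptor and kinase genes, 4 were tested, none passed and all 4 were negative. Ifngr1 measured 97.8 ± 11.8 and 101.4 ± 9.28 FPKM, and the kinase gene Jak2 67.7 ± 14.0 and 116.6 ± 20.7 FPKM (limma adjusted p = 0.0639).

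Across the libraries the mean of the interferon gamma response list was lowest in CKO replicate 1 and highest in CKO replicate 5, at 3.97 and 4.74 on the log2(FPKM + 1) scale, and these were also the lowest and highest libraries for Cxcl10. Over 6 libraries the list had Pearson r = 0.79 with Cxcl9 and 0.81 with Cxcl10, each with an exact permutation p = 0.0889, adjusted to 0.207 over 7 relations. Spearman rho was 0.77 for both (exact permutation p = 0.103, adjusted to 0.240). Without the 2 libraries farthest from the median of the list, CKO replicate 1 and FLOX replicate 5, r was 0.48 for Cxcl9 and 0.75 for Cxcl10. The points share their library scaling, and neither relation passed the adjustment. The ratios to this list overlapped between the groups, with a difference of 0.93 for Cxcl9 (exact permutation p = 0.5, adjusted to 0.636) and -0.21 for Cxcl10 (exact permutation p = 0.6, adjusted to 0.646). The Cxcl9 difference was 0.17 without FLOX replicate 5 and 1.55 without CKO replicate 1. The Cxcl10 difference was 0.25 without CKO replicate 1 and 0.0088 without FLOX replicate 5.

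**Figure D3:**
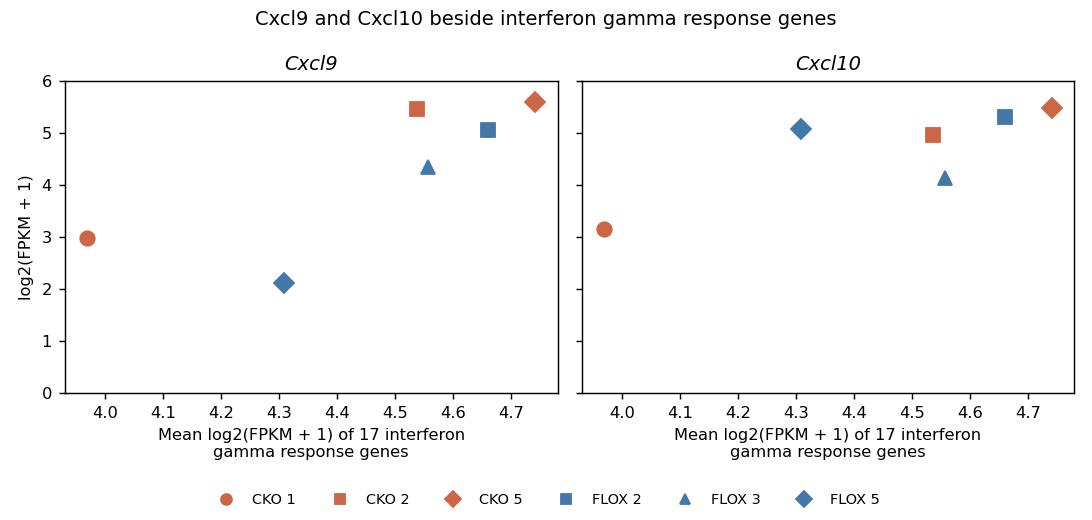
Log2(FPKM + 1) of Cxcl9 (left) and Cxcl10 (right) against the mean log2(FPKM + 1) of 17 interferon gamma response genes, a point per library. CKO replicate 1 stands at the left at 3.97, and FLOX replicate 5 is low for Cxcl9 only.

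Cxcr3, the receptor for both ligands on activated T cells and natural killer cells, varied less between libraries than these ligands. It measured 4.35, 4.44 and 4.24 FPKM in CKO and 4.63, 5.2 and 3.76 FPKM in FLOX, so the CKO values lay within the FLOX range. The within-group SD of 0.14 (log2) exceeded that of 55.0% of the tested genes. The log2 fold change was -0.04 (SE 0.11, 95% interval -0.30 to 0.22, limma adjusted p = 0.876), a span of 0.811-fold to 1.17-fold on the log2(FPKM + 1) scale. Without FLOX replicate 3 it was 0.046. Its range over all libraries was 1.38-fold, beside 14.2-fold for its ligand Cxcl9. Cxcr3 had Pearson r = 0.48 with Cxcl9 and -0.28 with Cxcl10 over the 6 libraries (exact permutation p = 0.350 and 0.558, adjusted to 0.418 and 0.558). Spearman rho was 0.20 and -0.31 (exact permutation p = 0.714 and 0.564, adjusted to 0.714 and 0.658). Without FLOX replicates 3 and 5, the farthest in Cxcr3, r was 0.08 and 0.19.

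T cell genes, which mark the main carriers of Cxcr3 and Cxcr6, did not pass either. All 14 were tested, 11 were positive and 3 negative, and the median was 0.14, with summed levels of 90.5 to 98.0 FPKM in CKO and 81.4 to 89.1 FPKM in FLOX. The T cell receptor chain gene Cd3g measured 17.2 ± 2.16 FPKM in CKO against 12.8 ± 1.38 FPKM in FLOX, and the co-receptor gene Cd4 22.0 ± 4.56 and 23.9 ± 3.98 FPKM (limma adjusted p = 0.104 and 0.717). Of 11 genes of natural killer and cytotoxic lymphocytes, 8 were tested, none passed and the median was -0.13. Among them the granzyme gene Gzmb measured 19.2 ± 5.59 and 29.5 ± 6.05 FPKM, and the chemokine gene Ccl5 12.9 ± 3.15 and 12.0 ± 4.56 FPKM.

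Set against the T cell list within each library, neither receptor separated the groups. The Cxcr6 difference was 0.22 (exact permutation p = 0.4, adjusted to 0.56) and the Cxcr3 difference -0.16 (exact permutation p = 0.3, adjusted to 0.525). Cxcr6 followed the T cell list across libraries, with Pearson r = 0.88 (exact permutation p = 0.00833, adjusted to 0.0583) and Spearman rho = 0.94 (exact permutation p = 0.0167, adjusted to 0.117). Without CKO replicate 5 and FLOX replicate 5, the farthest in the T cell list, r was 0.95. The relation did not pass the adjustment over 7 relations, and T cell genes and Cxcr6 share the library scaling. The ratio of Cxcr3 to Cxcr6 differed by -0.38 (exact permutation p = 0.3, adjusted to 0.525).

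Cxcl12, the stromal chemokine that retains leukocytes and progenitors in tissues, measured 243.27, 157.04 and 169.69 FPKM in CKO and 173.01, 161.25 and 235.52 FPKM in FLOX. CKO replicate 1 and FLOX replicate 5 were high and the other 4 libraries lay together, and the means were nearly equal (190.0 ± 46.6 and 189.9 ± 39.9 FPKM). The log2 fold change was -0.01 (SE 0.20, 95% interval -0.47 to 0.45, limma adjusted p = 0.991), so differences between 0.724-fold and 1.37-fold were not resolved. Its sign turned positive without CKO replicate 2 (0.12), CKO replicate 5 (0.06) or FLOX replicate 5 (0.16). The within-library ratio of Cxcl12 to the fibroblast list was log2 0.67, -0.11 and 0.65 in CKO and 0.74, 0.70 and 0.96 in FLOX. The difference was -0.40 with no overlap (exact permutation p = 0.1, adjusted to 0.35), and -0.14 without CKO replicate 2. CKO replicate 1 lay just below FLOX replicate 3. On the log2(FPKM + 1) scale the list mean was 7.26, 7.41 and 6.77 in CKO and 6.70, 6.64 and 6.93 in FLOX. Cxcl12 itself hardly differed, so the lower ratio is no evidence of lower Cxcl12.

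Endothelium is the other known source of Cxcl12. All 10 blood endothelium genes were tested, none passed and all were positive (median 0.16), with sums of 128 to 189 FPKM in CKO and 125 to 147 FPKM in FLOX. Pecam1, an adhesion gene of endothelium, stood at 46.2 ± 8.68 FPKM in CKO against 42.8 ± 3.56 FPKM in FLOX.

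Cxcr4, the receptor for CXCL12 on most leukocytes, measured 29.06, 13.94 and 15.64 FPKM in CKO and 15.85, 31.91 and 24.9 FPKM in FLOX. Each group held a mixture of high and low libraries, with CKO replicates 2 and 5 just below the lowest FLOX library. The log2 fold change was -0.31 (SE 0.31, 95% interval -1.05 to 0.42, limma adjusted p = 0.622). It was -0.10 without FLOX replicate 3, -0.12 without CKO replicate 2 and -0.20 without CKO replicate 5, against -0.58 without FLOX replicate 2 and -0.62 without CKO replicate 1. The 12 general leukocyte genes all had negative fold changes (median -0.46), with summed levels of 1378 to 1904 FPKM in CKO and 2255 to 2575 FPKM in FLOX. Of them Cd53 (118.8 ± 17.1 against 218.8 ± 23.2 FPKM) and Vav1 (12.5 ± 0.443 against 18.6 ± 0.996 FPKM) fell. Relative to that list the Cxcr4 difference was 0.19 (exact permutation p = 0.7, adjusted to 0.7), and it was negative without CKO replicate 1 (-0.06) or FLOX replicate 2 (-0.11).

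Cxcl12 and Cxcr4 had Pearson r = 0.53 over the 6 libraries (exact permutation p = 0.336, adjusted to 0.418) and Spearman rho = 0.43 (exact permutation p = 0.419, adjusted to 0.587). Without CKO replicate 1 and FLOX replicate 3, the farthest in Cxcr4, r was 1.00 over 4 libraries, too few to read. The ratio of Cxcl12 to Cxcr4 overlapped between the groups (difference 0.31, exact permutation p = 0.6, adjusted to 0.646), and was -0.018 without FLOX replicate 3. The ratio of Cxcl12 to Cxcl14 was log2 1.82, 1.61 and 1.35 in CKO and 0.93, 0.66 and 1.48 in FLOX, overlapping through FLOX replicate 5 (difference 0.57, exact permutation p = 0.2, adjusted to 0.467). The scavenger receptor for CXCL12, Ackr3, measured 29.8 ± 5.19 FPKM in CKO against 27.2 ± 4.56 FPKM in FLOX (limma adjusted p = 0.695).

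No gene of the list for CXCR4 and CXCR3 coupling passed. The list holds G protein subunits, kinases, arrestins and regulators that act on receptor signals, and also Mif, a further ligand of CXCR4, and Cd74, the invariant chain and a receptor for MIF, neither of which acts downstream of these receptors. Of its 13 tested genes 12 had negative and 1, Cd74, positive log2 fold changes, and the median was -0.23. Gnai2, the inhibitory G protein subunit used by chemokine receptors in leukocytes, measured 198 ± 10.4 FPKM in CKO against 231 ± 10.9 FPKM in FLOX (limma adjusted p = 0.157). Rgs1, a regulator that shortens chemokine receptor signals, measured 25.2 ± 4.91 and 56.9 ± 18.1 FPKM and did not pass (limma adjusted p = 0.0639; named after its values were seen). Cd74 measured 961 ± 45.8 and 877 ± 129 FPKM. General leukocyte genes, with the sums given above, also had negative fold changes, and their part was not tested.

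Cxcl13 was the remaining ligand. It measured 13.63, 4.42 and 7.02 FPKM in CKO and 7.43, 6.07 and 3.92 FPKM in FLOX. CKO replicate 1 was high and the other 5 libraries overlapped. The log2 fold change was 0.37 (SE 0.35, 95% interval -0.45 to 1.20, limma adjusted p = 0.601), and without CKO replicate 1 it was -0.011. Its receptor gene Cxcr5 stood at 0.203 ± 0.0611 FPKM in CKO and 0.26 ± 0.0529 FPKM in FLOX, below the level for testing. Of 8 B and plasma cell genes only 2 reached that level, Cd79b (1.75 ± 0.523 and 1.82 ± 0.271 FPKM) and Mzb1 (0.867 ± 0.339 and 1.07 ± 0.455 FPKM), and the B and plasma cell list summed to 3.2 to 4.69 FPKM in CKO and 2.66 to 3.98 FPKM in FLOX. Of 8 genes listed for follicular dendritic cells and lymphoid stroma, 4 were tested, none passed and all 4 were negative (median -0.22). They were Ltb, Ltbr, Tnfrsf1a and Pdpn, the podoplanin gene, with Pdpn at 55.9 ± 3.69 FPKM in CKO against 70.0 ± 8.90 FPKM in FLOX. Fdcsp, Glycam1, Lta and Madcam1 were not tested, so the list is a weak measure of lymphoid stroma.

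Other chemokine genes of lymphoid traffic did not pass. Of 13 listed ligands, receptors and scavengers, 8 were tested, 5 positive and 3 negative, with a median of 0.08. Ccl21a, a ligand of the homing receptor CCR7, measured 167 ± 9.66 FPKM in CKO against 175 ± 16.4 FPKM in FLOX, and its value is uncertain because near-identical gene copies can share reads. Ackr4, which removes CCR7 ligands, measured 9.27 ± 0.495 and 6.10 ± 1.09 FPKM with no overlap (limma adjusted p = 0.0657; named after its values were seen). Among proteases that trim or shed chemokines, none of 5 passed, and the gelatinase gene Mmp2, the most abundant, measured 222 ± 44.2 and 169 ± 10.8 FPKM. The other gelatinase gene, Mmp9, had the opposite sign, at 8.18 ± 3.51 FPKM in CKO against 18.9 ± 1.85 FPKM in FLOX with no overlap (log2 fold change -1.20, limma adjusted p = 0.0672; named after its values were seen).

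**Figure D4:**
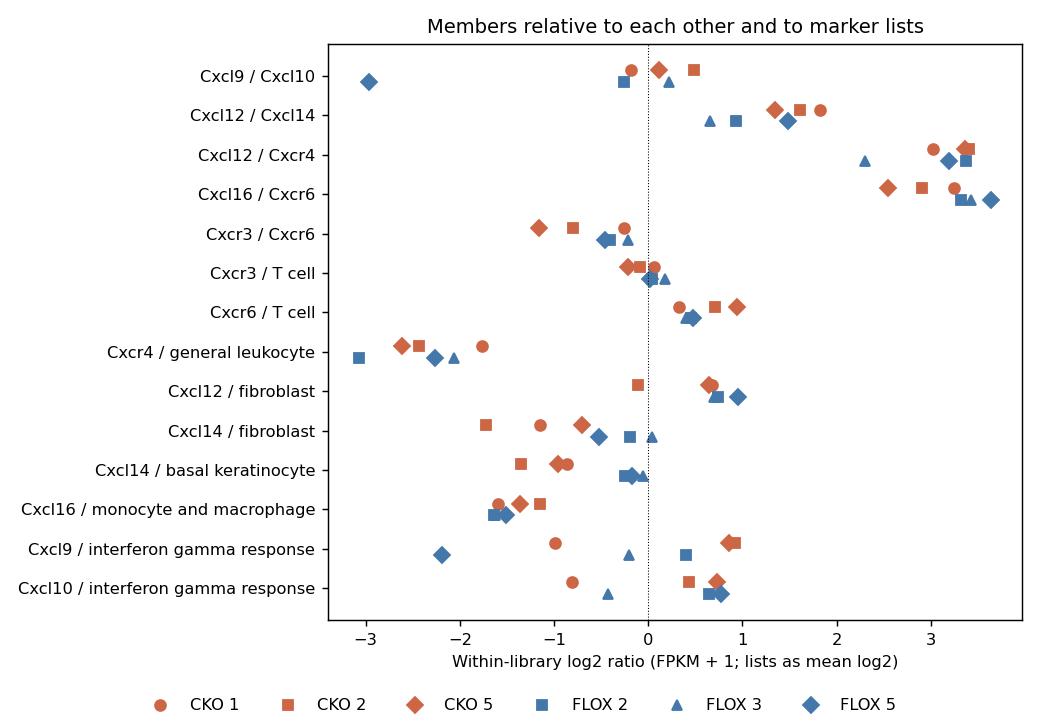
Within-library log2 ratio of each member to another member or to the mean of a marker list on the horizontal axis, a point per library, with CKO in orange and FLOX in blue. The groups do not overlap for Cxcl16 to Cxcr6, Cxcl12 to fibroblast, Cxcl14 to fibroblast and Cxcl14 to basal keratinocyte genes, and FLOX replicate 5 stands apart at -2.97 for Cxcl9 to Cxcl10. The ratio of Cxcl14 to basal keratinocyte genes could not overlap, since both terms lay apart in opposite directions. Cxcl14 and Cxcl16 already lay apart on their own, whereas Cxcl12 and Cxcr6 overlapped.

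**Figure D5:**
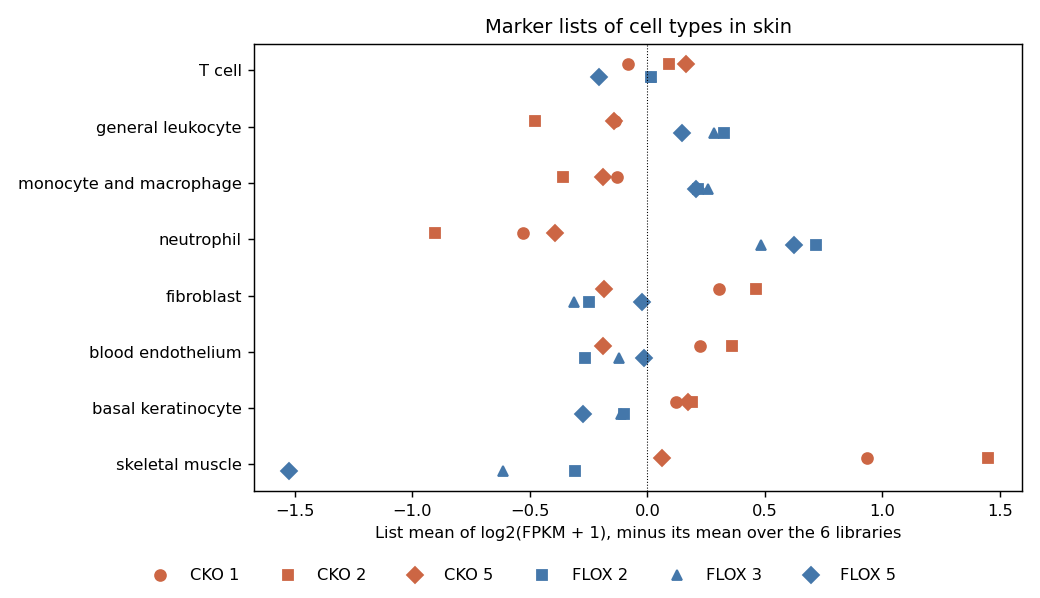
Mean log2(FPKM + 1) of 8 marker lists in each library, minus the mean over the 6 libraries. General leukocyte, monocyte and macrophage, and neutrophil lists lie lower in all CKO libraries, the basal keratinocyte and skeletal muscle lists higher, and the T cell, fibroblast and blood endothelium lists overlap.

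The genes most like each member over the 6 libraries were sought by Pearson correlation of log2(FPKM + 1) among tested genes with a mean of at least 5 FPKM, 9227 or 9228 for each member. Cxcl9 was followed most closely by Rangap1 (r = 0.997), Psme2 (0.992) and Tapbp (0.989), and Cxcl10 by Dcun1d1 (0.991), Ctps (0.980) and Gnl3l (0.977). For Cxcl14 they were Ms4a4a (0.998), Cd84 (0.995) and Ms4a6d (0.995), which also had lower means in CKO, with log2 fold changes of -0.71, -0.51 and -0.92 and no call (limma adjusted p = 0.0744, 0.0674 and 0.0515). Cxcl16 was matched by Mdm2 (0.992), Lrp12 (0.987) and Cggbp1 (0.985). Ms4a4a and Ms4a6d have related copies that can share reads, so their values are uncertain. For Cxcl14 and Cxcl16 the groups lay apart, so the correlation carries the difference between groups.

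The stromal pair had Mid1 (0.990), Htra2 (0.988) and Chp1 (0.986) nearest to Cxcl12, and Cant1 (0.993) and Tmem189 (0.990) near to Cxcr4. Cxcl13 was nearest to Hsd11b1 (0.982), Bmi1 (0.977) and Chd1l (0.976). Of the receptors on T cells, Cxcr3 lay closest to Synj2bp (0.991), Limk1 (0.981) and Caprin1 (0.974), and Cxcr6 to Tmem165 (0.980), Mtf2 (0.972) and Grpel2 (0.968). With 6 libraries and so many genes searched, these values describe the libraries and carry no test.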

How the data were processed

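Mouse skin messenger RNA, purified with oligo(dT), was read from single ends on a DNA nanoball platform, per the labels' protocols. HISAT was the aligner, per the submitters' processing notes, with its version and the counter, genome build and annotation not given in the sources used here. The values the authors deposited are FPKM, per the file headers. Whole reads were not recovered from low values, so depth is unknown and no counting interval is given. No label ties libraries to separate animals, and p-values therefore cover only the spread between these samples, possibly technical.

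The filter of 1 FPKM or more in 3 or more libraries left 12994 of 18939 genes. CKO minus FLOX was tested on log2(FPKM + 1), two-sided, with limma 3.58.1 in R 4.3.3, an intensity trend and Benjamini-Hochberg adjustment over all tested genes. This scale understates fold changes of low genes. Within-library ratios, fixed as 14 pairs, and correlations were given exact two-sided permutation tests (SciPy 1.17.1). Lists were described by counts and medians, with no test of the list. The procedure was tested on simulated data. The members and lists were chosen with earlier results of these data known. Named genes were the members, Vamp7, the list genes past the threshold and the 2 most abundant of each list, and the 3 genes most correlated with each member; further list genes named for their role in the pathway were chosen after their values were seen. The most abundant genes are not repeated for every list, and a gene that the rule takes is not reported here. Alternatives were other pseudocounts, filters, scalings and empirical Bayes settings, array weights, a replicate block, a muscle covariate and leaving out each library.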

Additional observations from a re-analysis of the deposited data

How the results depend on the processing

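No member passed the threshold in any of the 17 alternatives. Cxcl14, Cxcl16 and Cxcr4 stayed negative and Cxcr6 positive in all 17. The number of genes called, 124, became 1 with no filter, 187 with the filter at 5 FPKM, 0 with quantile normalization, 32 without the intensity trend, 10 with robust fitting, 274 with array weights, 0 with the skeletal muscle covariate, and 0 to 417 when a library was left out. At an unadjusted p under 0.05, limma had 2632 genes with quantile normalization and 625 with the muscle covariate. The muscle covariate was higher in every CKO library than in any FLOX library, so that fit cannot tell muscle from genotype. With the replicate block 219 genes were called. The groups share only replicate numbers 2 and 5, whose deviations correlated at 0.13 and -0.11. So few shared numbers cannot decide whether the numbers pair the samples. Signs turned for Cxcl12 with quantile normalization (0.071), array weights (0.046) and the muscle covariate (0.31), for Cxcl10 with the replicate block (0.027) and the muscle covariate (0.31), for Cxcr3 with the replicate block (0.045) and for Cxcl9 with the muscle covariate (-0.57). The block raised Cxcl9 to 1.94 (limma adjusted p = 0.225) and Cxcr6 to 0.59 (limma adjusted p = 0.172). Members at an unadjusted p under 0.05 numbered 4 with the block and 0 with the muscle covariate. The cause was not tested.

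With a library left out, the log2 fold change ran from -0.028 to 1.69 for Cxcl9, -0.78 to 0.38 for Cxcl10, -0.20 to 0.16 for Cxcl12, -0.011 to 0.71 for Cxcl13 and -0.15 to 0.046 for Cxcr3. Ratio differences that changed sign ran from -0.018 to 0.52 for Cxcl12 to Cxcr4, -0.11 to 0.39 for Cxcr4 to general leukocyte genes and -0.59 to 0.25 for Cxcl10 to interferon gamma response genes. The other 11 ratios kept their sign; of these, Cxcl9 to Cxcl10 ran from 0.16 to 1.75, Cxcl9 to interferon gamma response genes from 0.17 to 1.55, Cxcr3 to Cxcr6 from -0.62 to -0.17 and Cxcr6 to T cell genes from 0.076 to 0.39. Cxcr3 was not tested with the filter at 5 FPKM. Unknown depth limits what can be said of Cxcr3 and Cxcl13, the least abundant members.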
